A study of Mus musculus with 5 samples.

Results

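Expression of 8 genes from the poly(ADP-ribose) polymerase (PARP) field was followed through single-nucleus RNA sequencing (snRNA-seq) of mouse brain nuclei: Parp9, its partner Dtx3l, Parp14, Parp10, Parp11, Parp12 and Zc3hav1, which are linked to interferon, and Parp1 as a constitutive reference. They were chosen by name with earlier results of these data known, and all 8 were present among the 32285 genes counted in each library. Both groups of mice carried the Tmem119-creERT2 driver, which the study describes as active mainly in microglia and brain macrophages. According to its methods tamoxifen was used to switch the allele on, in mice 8 weeks old or slightly older. The R241E group comprised 2 mice heterozygous for the Cgas R241E allele (Cgas wt/R241E) and the WT group 3 mice with wild-type Cgas (wt/wt). cGAS detects DNA and, by way of STING, leads to production of type I interferon. The R241E change loosens the hold of nucleosomes on the enzyme. The study's results text names control mice differently from its methods, and the sample titles were followed. All samples are labelled as hippocampus, whereas the extraction text speaks of brain tissue. A text on H151 or DMSO in aged mice accompanies every sample without assigning either, so no treatment was compared here.

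PARP enzymes transfer ADP-ribose from NAD onto proteins or nucleic acids. Parp1 is the abundant nuclear member that is switched on by DNA breaks and builds long chains, whereas most of the interferon-linked members add a single unit or none and act on signalling, ubiquitin and viral RNA. Several of them are known interferon-stimulated genes, whose promoters often hold the interferon-stimulated response element (ISRE).

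Nuclei negative for NeuN, a neuronal protein, and per the study's methods for Olig2, an oligodendrocyte-lineage protein, had been sorted to enrich microglia, and 1 library was made per mouse. After filtering, 9505 of 9748 nuclei remained, with 1357 to 2403 nuclei per library and a median of 2125.5 to 3364 unique molecular identifiers (UMIs, 1 per captured RNA molecule) per nucleus. The clusters were named from marker genes, and microglia numbered 1006 and 524 in R241E mice, and 926, 1471 and 1452 in WT mice, although every sample is labelled as microglia. Within that class the 8 microglial markers together stood at 6214 and 7023 CPM (the UMIs of a gene divided by all UMIs of the class in that library, times 1e6) in R241E and at 7039 to 7496 CPM in WT. Markers of other classes in microglia also differed between the genotypes without overlap: the 7 oligodendrocyte markers summed to 217.7 and 304.4 CPM in R241E against 127.3 to 143.9 CPM in WT, the 6 markers of their precursors to 14.1 and 12.5 against 7.28 to 8.98 CPM, and the 8 mural markers to 18.2 and 27.0 against 10.9 to 16.1 CPM, whereas those of border-associated macrophages and endothelial cells were lower in R241E. All 7 oligodendrocyte markers were detected. In R241E oligodendrocytes each of the 7 interferon-linked genes stood lower than in microglia of the same library, Parp12 being the highest of them at 93.6 and 113.4 CPM against 169.3 and 170.9 CPM. In R241E mural cells Zc3hav1 stood higher than in microglia of the same library, at 248.6 and 427.6 against 216.1 and 169.5 CPM. The other interferon-linked genes stood lower there. The part of the other classes in the microglial results was not tested. Different clusters held most microglia of the groups: 1 cluster held 1.49% and 6.87% of R241E microglia but 39.05% to 77.11% of WT microglia, whereas another held 52.58% and 35.69% against 1.84% to 3.06%, and a cluster led by Ifi207, Ifi204 and Cxcl10 held 21.97% and 17.75% against 0.34% to 0.43%. A further cluster of 53 nuclei with pituitary markers came almost wholly from R241E mouse 1 (51 nuclei), and 13 barcodes occurred in more than 1 library.

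The genes lie in a few places of the mouse genome (GRCm38.p6, the build of the counts). Parp14 (chr16:35831892-35871518, minus strand), Dtx3l (chr16:35926515-35939027, minus strand) and Parp9 (chr16:35938470-35972621, plus strand) are neighbours, with Dtx3l and Parp9 running head to head and sharing 558 bases. It is not stated whether read strand was used in counting, so how any reads from those 558 bases were assigned is not known. These bases hold the starts of both genes, whereas the study's methods describe counting at the far end of transcripts. Zc3hav1 (chr6:38305286-38355352) and Parp12 (chr6:39086412-39118349) lie 731.1 kb apart, both on the minus strand. Parp11 (chr6:127446830-127514233, plus strand), Parp10 (chr15:76232995-76243440, minus strand) and Parp1 (chr1:180568891-180600999, plus strand) stand alone.

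Promoter sequences are shown because the interferon-linked genes moved together in microglia while Parp1 did not pass the test. The RefSeq promoter table for GRCm38.p6 holds 250 bases before and 50 bases after each start that it lists. It matched 5 of the 8 genes, and Parp9, Parp10 and Parp14 had no entry. The ISRE core was searched as GAAANNGAAA on both strands (TTTCNNTTTC on the other), and matches are given in capitals. The sequences run 5′ to 3′ on the gene's own strand.
Dtx3l, chr16:35938978-35939277, minus strand: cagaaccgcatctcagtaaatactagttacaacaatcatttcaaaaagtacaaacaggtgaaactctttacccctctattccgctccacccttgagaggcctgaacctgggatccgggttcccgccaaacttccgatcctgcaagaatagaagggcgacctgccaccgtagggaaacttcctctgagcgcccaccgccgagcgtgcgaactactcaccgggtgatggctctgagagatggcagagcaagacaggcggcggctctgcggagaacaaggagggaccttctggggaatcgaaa
Parp11, first of 2 promoters, chr6:127446590-127446889, plus strand: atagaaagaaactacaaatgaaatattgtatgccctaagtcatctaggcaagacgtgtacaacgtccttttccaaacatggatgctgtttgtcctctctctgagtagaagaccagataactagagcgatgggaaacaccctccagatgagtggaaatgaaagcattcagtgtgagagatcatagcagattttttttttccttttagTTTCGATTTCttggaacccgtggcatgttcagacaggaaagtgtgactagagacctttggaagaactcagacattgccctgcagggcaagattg
Parp12, chr6:39118300-39118599, minus strand: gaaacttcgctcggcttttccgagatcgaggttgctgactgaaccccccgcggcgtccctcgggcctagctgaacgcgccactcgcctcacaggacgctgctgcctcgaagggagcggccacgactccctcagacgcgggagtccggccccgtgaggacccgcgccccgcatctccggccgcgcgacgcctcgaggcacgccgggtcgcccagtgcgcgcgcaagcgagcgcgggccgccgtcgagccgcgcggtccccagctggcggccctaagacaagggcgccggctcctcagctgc
Parp1, chr1:180568641-180568940, plus strand: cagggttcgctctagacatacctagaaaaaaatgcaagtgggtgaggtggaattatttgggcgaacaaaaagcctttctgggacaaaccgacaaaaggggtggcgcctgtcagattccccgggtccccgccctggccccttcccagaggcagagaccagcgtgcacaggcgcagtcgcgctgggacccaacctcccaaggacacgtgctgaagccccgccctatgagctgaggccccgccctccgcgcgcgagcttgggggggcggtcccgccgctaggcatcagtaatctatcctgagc

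The first Parp11 promoter held 1 ISRE core on its minus strand, TTTCGATTTC, beginning 44 bases before the start listed there. That start differs slightly from the 5′ end of the gene span given above. No core was present in the other Parp11 promoter or in those of Dtx3l, Parp12, Zc3hav1 and Parp1. The Zc3hav1 window (chr6:38354554-38354853) lies inside the gene span given above and does not cover its 5′ end. The Zc3hav1 and second Parp11 sequences are not printed. Of all 32851 promoters in the table, 3.44% held the core. The windows differed widely in composition, from 42.0% G and C with 5 CpG dinucleotides in the first Parp11 promoter to 73.7% with 46 in that of Parp12. Dtx3l stood at 54.3% with 17, Zc3hav1 at 58.0% with 20 and Parp1 at 62.0% with 20, beside a median of 52.7% and 7 over all promoters. These letters describe the windows and were not tested for binding.

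In microglia all 7 interferon-linked genes were higher in R241E than in WT, by 1.75-fold for Parp11 to 3.90-fold for Parp14 in the ratio of mean CPM, and the R241E and WT libraries did not overlap for any of them. Parp1 was not called. Counts were summed per mouse and tested with edgeR across 12730 genes, of which 6.02% were called higher at an adjusted p under 0.05. For comparison, 20.4% of the tested genes were higher in both R241E libraries than in all WT libraries, so a lack of overlap by itself was common. The median log2 fold change was 1.25 for the 7 genes and -0.01 over all genes tested.

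The pair of Parp9 and Dtx3l forms one complex, in which Parp9 brings ADP-ribose-binding macrodomains and Dtx3l, a Deltex-type E3 ligase, transfers ubiquitin. Parp9 stood at 166.5 and 143.9 CPM in R241E mice 1 and 2, against 56.6, 55.3 and 62.5 CPM in WT mice 1 to 3. Both R241E values were more than double each WT value. Its log2 fold change was 1.41 (SE 0.12, adjusted p = 6.15e-07 by edgeR).

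Dtx3l stood at 81.7 and 78.2 CPM in the R241E mice, against 31.1, 44.7 and 42.8 CPM in WT. The R241E mice were close together and the WT mice more spread, with WT mouse 1 lowest. In the test, Dtx3l had a log2 fold change of 0.98 (SE 0.15, adjusted p = 5.62e-04 by edgeR), and 373 and 414 UMIs of Dtx3l were counted over the microglia of the 2 groups.

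Parp14, a large macrodomain protein that attaches single ADP-ribose units and is known as a co-activator of STAT6, had the largest change of the 8 genes. Its level was 344.9 and 315.5 CPM in R241E and 79.7, 86.2 and 88.3 CPM in WT, with 1554 and 866 UMIs behind the groups. The WT mice lay within a narrow band far below both R241E mice. The test gave Parp14 a log2 fold change of 1.94 (SE 0.10, adjusted p = 3.12e-09 by edgeR).

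Parp10, a mono-ADP-ribosyltransferase with an RNA recognition motif, had the fewest UMIs of the 8 genes, 169 in R241E and 152 in WT. It stood at 38.3 and 32.5 CPM in the R241E mice, against 12.9, 14.8 and 16.8 CPM in WT, without overlap. Its log2 fold change was 1.25 (SE 0.19, adjusted p = 4.11e-04 by edgeR). With every nucleus thinned to 1000 UMIs before summing, the change fell to 0.51 and was not called (adjusted p = 0.471 by edgeR). That was a single random draw. In the separate draw used for the shares below, Parp10 was seen in 2.91% and 2.61% of R241E microglia. The WT shares in that draw were 1.22%, 1.31% and 1.59%. How far the fitted change depends on the draw was not tested.

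Parp11, a mono-ADP-ribosyltransferase found at the nuclear envelope, showed the smallest change of the interferon-linked genes. Its level was 58.7 and 49.1 CPM in R241E and 37.2, 29.1 and 26.0 CPM in WT. R241E mouse 2 and WT mouse 1 were the closest across the groups. The test put Parp11 at a log2 fold change of 0.83 (SE 0.17, adjusted p = 0.00504 by edgeR), and without R241E mouse 1 it was 0.66 and not called (adjusted p = 0.185 by edgeR).

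Parp12 and Zc3hav1 share CCCH zinc fingers and a role against viruses. Parp12, which is catalytically active and restrains translation of viral RNA, stood at 169.3 and 170.9 CPM in the R241E mice, against 60.2, 70.8 and 76.0 CPM in WT. The R241E mice were nearly equal and lay above every WT mouse. Its log2 fold change was 1.27 (SE 0.11, adjusted p = 1.70e-06 by edgeR).

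Zc3hav1 encodes ZAP, an enzymatically inactive member that binds CpG-rich RNA and sends it to decay. It stood at 216.1 and 169.5 CPM in the R241E mice, against 109.6, 101.2 and 88.3 CPM in WT, so that the R241E mice were the more spread and still both above WT. For Zc3hav1 the log2 fold change was 0.96 (SE 0.13, adjusted p = 1.23e-04 by edgeR).

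Parp1 stood at 70.0 and 66.4 CPM in the R241E mice, against 46.9, 61.1 and 56.0 CPM in WT. The groups did not overlap here either, but R241E mouse 2 and WT mouse 2 were only a few CPM apart. The log2 fold change was 0.29 (SE 0.14) and did not pass the test (adjusted p = 0.258 by edgeR).

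**Figure D1:**
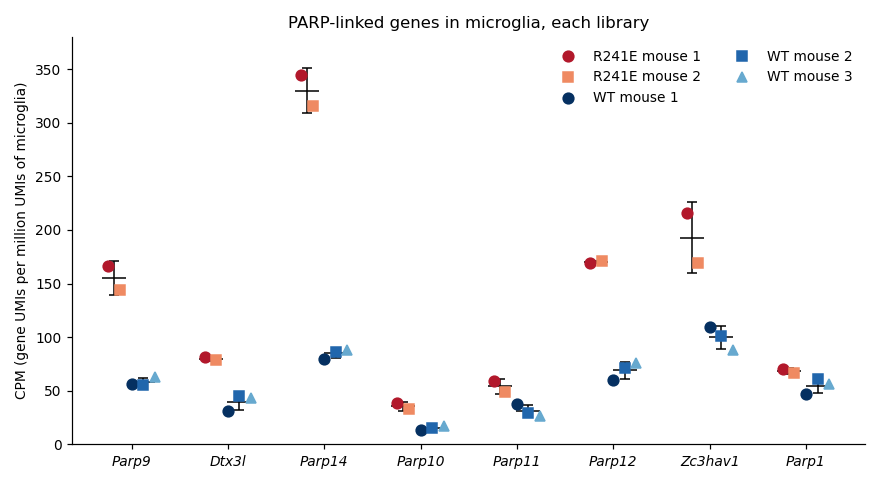
Level of the 8 genes in microglia, in CPM on a linear axis from 0. Points are the 2 R241E and 3 WT libraries, and black bars are group means with SD. Parp14 is at 344.9 and 315.5 CPM in R241E and between 79.7 and 88.3 CPM in WT, and for Parp1 the groups lie close, at 66.4 to 70.0 against 46.9 to 61.1 CPM.

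To ask how many nuclei carried each transcript, the share of microglia with at least 1 UMI was taken after thinning every nucleus to 1000 UMIs, which left out 9 and 26 shallower nuclei in R241E and 23, 24 and 64 in WT. For Parp14 the share was 25.4% and 23.9% in R241E and 6.87%, 8.09% and 8.79% in WT, that is 24.6% ± 1.05 (SD, n = 2) against 7.91% ± 0.974 (SD, n = 3). The R241E mice were both above all WT mice. In neurons of the same libraries, at the same 1000 UMIs, Parp14 was seen in at most 1.02% of nuclei, and Parp9, Dtx3l and Parp10 in at most 1.48%. Other genes were seen more often in neurons: Parp12 in 2.24% to 9.43%, Zc3hav1 in 0.741% to 4.17%, Parp11 in up to 3.06% and Parp1 in 2.04% to 6.25%. The WT microglial shares of Parp12 (6.57% to 7.28%) lay within that range of neurons, and the R241E shares (14.1% and 14.9%) above it.

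Without overlap, the share was also higher for Zc3hav1 (17.0% ± 1.55 against 9.39% ± 0.528), Parp12 (14.5% ± 0.509 against 7.01% ± 0.390), Parp9 (14.2% ± 0.156 against 5.6% ± 1.06), Dtx3l (6.52% ± 0.137 against 3.59% ± 1.00) and Parp10 (2.76% ± 0.211 against 1.37% ± 0.191). Each of these and Parp14 gave an exact two-sided permutation p of 0.1 over the libraries, among 8 genes compared. That is the smallest p that 2 against 3 libraries can give. How often such a lack of overlap in shares occurs over all genes was not counted. For Parp11 (3.31% ± 0.139 against 2.89% ± 0.477) and Parp1 (7.12% ± 1.56 against 5.48% ± 0.969) the groups overlapped. This split depended on depth: at 500 UMIs Parp10 overlapped too (1.13% against 0.682%, exact permutation p = 0.3), and at full depth neither Parp11 (11.3% against 6.96%) nor Parp1 (17.2% against 12.3%) did. At full depth the shares were higher, for example 45.5% ± 5.79 against 17.3% ± 1.99 for Parp14, and R241E microglia were then also the deeper in mouse 1 (median 3056 UMIs, against 2572.5 in R241E mouse 2 and 2061.5 to 2612 in WT).

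More microglia also held several of the genes at once. At 1000 UMIs, 19.5% (95% exact Clopper-Pearson interval 17.0 to 22.1) and 19.9% (16.5 to 23.7) of R241E microglia had UMIs of 2 or more of the 7 interferon-linked genes. The WT shares were 4.54% (3.28 to 6.11), 5.25% (4.16 to 6.53) and 5.40% (4.27 to 6.73), so all 3 lay far below both R241E mice. UMIs of 3 or more of the 7 genes were seen in 6.72% and 5.82% of R241E microglia and in 0.332%, 0.760% and 0.576% of WT microglia. None of the 7 was seen in 43.8% and 47.2% of R241E microglia and in 66.1% to 69.3% of WT microglia. The intervals cover counting error only.

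Microglia were next divided by their UMIs of the study's interferon list, 28 genes that include none of the 8, after thinning to 1000 UMIs. No list UMI was seen in 165 and 105 R241E microglia and in 636, 994 and 956 WT microglia, 1 to 2 in 403 and 209 against 246, 409 and 392, and 3 or more in 429 and 184 against 21, 44 and 40. The division describes nuclei by a correlated measure, and no test was run on it.

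Parp14 was higher in each successive bin in both R241E mice, from 151.5 and 114.3 CPM in nuclei without a list UMI through 206.0 and 277.5 CPM to 543.1 and 510.9 CPM with 3 or more. In WT it was 69.2, 74.5 and 99.4 CPM, then 44.7, 97.8 and 61.2 CPM, and 714.3, 295.5 and 275.0 CPM in the last bin, which held only 105 WT nuclei and 39 UMIs of the gene. R241E exceeded WT in all libraries of the first and the middle bin, with ratios of means of 1.64 and 3.56, whereas the last bin overlapped, with a ratio of 1.23.

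Several ratios moved with how the bins were made. As an alternative, bins were taken from full-depth counts as list UMIs per 1000 UMIs (0, up to 2.5, above 2.5). Parp14 then had ratios of 1.53, 2.27 and 0.92, so that R241E stayed the higher in the first and middle bins. The first bin held only 40 and 46 R241E nuclei, with 8 and 9 UMIs of Parp14. The last bin held only 54 WT nuclei. Parp9 had ratios of 1.5, 1.94 and 3.46 with thinned bins, the last from 7 WT UMIs. With full-depth bins its ratios were 1.41, 1.75 and 1.43. The groups then overlapped in the first bin, from 11 UMIs of Parp9 in R241E, and in the last. In the middle bin R241E was the higher without overlap either way.

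Zc3hav1 went from 1.44, 1.64 and 1.62 to 1.08, 1.39 and 0.932, and Parp12 from 0.877, 1.62 and 1.07 to 1.02, 1.64 and 0.857. In nuclei without a list UMI, Dtx3l was below 1 both ways (0.812 and 0.565), from 9 and 3 UMIs in R241E, while Parp11 turned from 0.598 to 1.32, from 5 UMIs each time. In the middle and last bins Dtx3l had 2.22 and 0.851 thinned, and 1.402 and 1.155 at full depth. Parp11 had 1.09 and 1.01, and 0.974 and 1.12, all overlapping. Parp10 went from 1.435, 0.949 and 0.675 to 1.661, 1.365 and 1.107, from 4 and 3 R241E UMIs in the first bin. Parp1 had ratios of 1.5, 1.31 and 1.27 with thinned bins and 2.04, 1.21 and 1.54 with full-depth bins. Its first full-depth bin did not overlap, from 16 UMIs in R241E, and all its other bins did. In nuclei without a list UMI, Parp14 had ratios of 1.64 and 1.53, so an excess of about that size was not particular to Parp14.

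**Figure D2:**
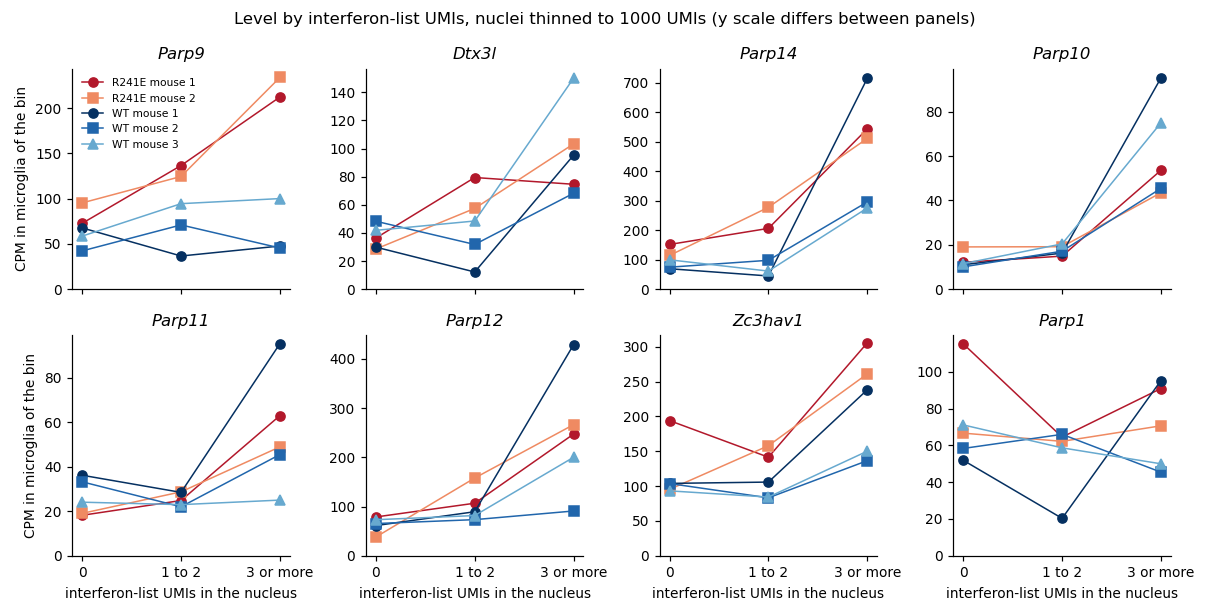
Level of each gene (CPM, linear axis from 0 that differs between panels) in microglia with 0, 1 to 2 or 3 or more UMIs of the interferon list, nuclei thinned to 1000 UMIs. Each line is 1 library. Parp14 climbs in both R241E mice to 543.1 and 510.9 CPM, while WT values of the last bin rest on 105 nuclei and scatter widely.

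Across the 7 cell classes that had 20 or more nuclei per library, Parp14 and Parp11 were highest in border-associated macrophages, the resident macrophages of the brain's borders, in 5 of 5 libraries. In WT mice Parp14 stood at 385.4, 282.0 and 154.1 CPM in these cells and at 79.7 to 88.3 CPM in microglia, without overlap. Fibroblasts came next at 42.5 to 74.6 CPM and mural cells at 38.9 to 53.8 CPM, and these did not differ beyond their spread. Neurons (12.2 ± 9.75 CPM, SD, n = 3), astrocytes (6.95 ± 6.16 CPM) and oligodendrocytes (2.78 ± 2.5 CPM) were lowest and overlapped one another. Classes with fewer nuclei in any library were left out of this ranking and of those below. Among them, monocytes or neutrophils exceeded border-associated macrophages for Parp14 in R241E mouse 1, at 432.8 against 416.4 CPM. They did so too in WT mice 1 and 3 (534.5 and 206.6 CPM, from 18 and 66 nuclei), but not in either mouse 2. The monocyte or neutrophil class was a single cluster, led by Igkc, Cd74 and H2-Aa, and its naming moved with the clustering. With finer clusters (Leiden resolution 2) it held 1 to 18 nuclei per library instead of 18 to 66. Border-associated macrophages then held 71 to 156 instead of 44 to 105. For Parp11, lymphocytes exceeded those macrophages in R241E mouse 2 (169.2 against 125.8 CPM, 35 nuclei) but not in R241E mouse 1.

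For Parp11, WT border-associated macrophages stood at 57.1 to 169.9 CPM and WT microglia at 26.0 to 37.2 CPM, again without overlap, and microglia overlapped astrocytes at 21.4 to 38.5 CPM. Parp12 was highest in border-associated macrophages in 4 of 5 libraries and in fibroblasts in WT mouse 2. In WT its fibroblasts, at 85.3 to 115.9 CPM, lay above its microglia at 60.2 to 76.0 CPM, and oligodendrocytes had the lowest mean (22.1 ± 2.07 CPM), within the range of astrocytes and of mural cells.

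Among the 7 classes Zc3hav1 had another order, with mural cells, the contractile cells around vessels, highest in 4 of 5 libraries (427.6 CPM in R241E mouse 2 and 268.4 CPM in WT mouse 3). Of the classes left out, lymphocytes exceeded mural cells in R241E mouse 1 (464.2 against 248.6 CPM, 120 nuclei). The same held in WT mouse 2 (401.9 against 203.1 CPM), from only 7 nuclei. Monocytes or neutrophils also exceeded mural cells in these 2 libraries (275.4 and 251.6 CPM). In R241E mouse 2 and WT mouse 3 both classes stood below mural cells. In WT, mural cells, fibroblasts and border-associated macrophages overlapped at means of 187.4, 162.5 and 155.2 CPM. Microglia, at 99.7 ± 10.7 CPM, lay below border-associated macrophages without overlap but overlapped mural cells and fibroblasts. Neurons, astrocytes and oligodendrocytes were under 50 CPM in every WT library.

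Parp9 was highest in border-associated macrophages in 3 libraries and in microglia in 2, and in WT border-associated macrophages, microglia, fibroblasts and mural cells formed a run of overlapping neighbours from 77.2 ± 29.6 down to 41.6 ± 14.5 CPM. Astrocytes followed at 16.5 ± 7.39 CPM, clear of both neighbours, and oligodendrocytes were lowest at 2.81 ± 0.579 CPM. Dtx3l kept a like order, from 41.5 ± 15.1 CPM in WT border-associated macrophages to 2.00 ± 1.80 CPM in oligodendrocytes, with every neighbour overlapping. Parp10 had 3 UMIs or fewer in each WT library outside microglia. Parp1 ran from 68.6 ± 26.7 CPM in WT border-associated macrophages to 14.0 ± 8.06 CPM in fibroblasts, and all neighbours in its order overlapped.

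**Figure D3:**
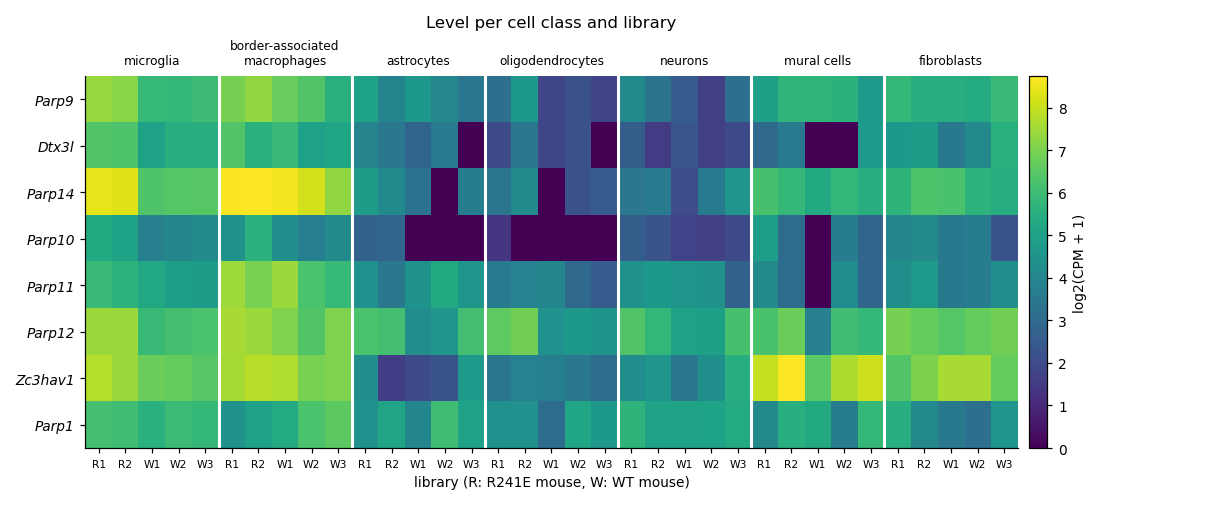
Level of each gene, as log2(CPM + 1) in colour, in every library (R1 and R2 are R241E, W1 to W3 WT) of the 7 classes. Parp14 and Parp11 are brightest in border-associated macrophages and Zc3hav1 in mural cells, while oligodendrocytes and neurons are dark for most of the genes.

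The genotypes were then compared in each other class. Nuclei there were fewer, from 30 in the WT mouse 1 fibroblasts to 276 in the R241E mouse 1 oligodendrocytes, and fewer of the genes reached enough counts to be tested. Only Parp12 in oligodendrocytes was called. Among all genes tested, 0.811% were called higher in border-associated macrophages, 0.292% in astrocytes, 0.208% in oligodendrocytes, 0.0113% in neurons, and 0% in mural cells and in fibroblasts. In these last 2 classes 174 of 3862 and 407 of 5821 genes had an unadjusted p under 0.05 by edgeR in either direction. DESeq2 called 0 and 11 genes higher there and limma-voom 0 in both.

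In oligodendrocytes Parp12 stood at 93.6 and 113.4 CPM in R241E, from 124 and 33 UMIs, and at 20.2, 24.3 and 21.8 CPM in WT, from 8, 7 and 9 UMIs. Both R241E mice were more than 3 times as high as the highest WT mouse. The log2 fold change was 2.19 (SE 0.30, adjusted p = 0.00526 by edgeR). Without R241E mouse 1 or mouse 2 the change was 2.33 and 2.10 but not called (adjusted p = 0.476 and 0.164 by edgeR), and it was not called by limma-voom (adjusted p = 0.109) or after thinning (adjusted p = 0.718 by edgeR).

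The 8 microglial markers were all detected in oligodendrocytes and summed to 218.2 and 209.6 CPM in the R241E mice, against 161.8, 371.9 and 523.8 CPM in WT, so the groups overlapped and the lowest and highest values were both from WT mice. Siglech was at 0 in WT mouse 1, and P2ry13 in WT mice 1 and 2. The other interferon-linked genes were sparse in oligodendrocytes, with 13 and 5 UMIs of Parp14 in R241E and 0, 1 and 2 in WT, and were not tested. Stat2 (1.81, SE 0.31, adjusted p = 0.0234) and Irf9 (2.93, SE 0.54, adjusted p = 0.0348) were also called higher in oligodendrocytes by edgeR.

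Border-associated macrophages had no call among the 8 genes. The driver is described by the study as active in brain macrophages too. Parp14 stood at 416.4 and 424.6 CPM in the R241E mice, against 385.4, 282.0 and 154.1 CPM in WT. The R241E mice were the higher, but WT mouse 1 came near them. The log2 fold change was 0.64 (SE 0.25, adjusted p = 0.410 by edgeR).

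The other 4 interferon-linked genes tested in border-associated macrophages had log2 fold changes of 0.39 (Zc3hav1) to 0.84 (Parp9), none of them called, and the median of the 5 was 0.67 beside -0.01 over all genes tested. Parp1 had the opposite sign there, at -1.46 (SE 0.62, adjusted p = 0.484 by edgeR), from only 4 to 16 UMIs per library.

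In astrocytes, Parp12 stood at 75.7 and 68.6 CPM in the R241E mice, against 18.3, 23.1 and 68.3 CPM in WT. WT mouse 3 almost reached the R241E mice, and the log2 fold change of 0.89 (SE 0.40) was not called (adjusted p = 0.508 by edgeR). Different clusters held the astrocytes of the groups: 1 cluster held 173 of 178 and 82 of 127 in R241E, against 38 of 64, 17 of 58 and 29 of 144 in WT, with the rest in another. The part of this in the astrocyte results was not tested. Parp9 was at 0.71 (SE 0.54) and Parp11 at -0.63 (SE 0.48), neither called. In mural cells Zc3hav1 (0.71, SE 0.29) and Parp12 (0.80, SE 0.43) were not called, and in neurons Parp12 (0.65, SE 0.40), Parp11 (0.23, SE 0.55) and Zc3hav1 (-0.14, SE 0.59) were not called. Neurons too were split unevenly, with 1 cluster holding 2 of 109 and 5 of 137 in R241E. It held 146 of 271, 14 of 100 and 22 of 115 neurons in WT mice 1 to 3. The part of this split in the neuron levels, shares and changes was not tested. In fibroblasts Zc3hav1 stood at 81.8 and 129.4 CPM in the R241E mice, against 191.9, 195.1 and 100.5 CPM in WT, with a log2 fold change of -0.55 (SE 0.32) that was not called, and Parp14, Parp12 and Parp9 lay between 0.13 and 0.37. Of 3 clusters of fibroblasts, 1 led by Slc47a1 and Slc4a10 held 104 of 169 and 57 of 151 nuclei in R241E, against 9 of 30, 17 of 67 and 38 of 94 in WT, shares that overlapped. Summed over the class, markers on the astrocyte list stood at 1583 and 2074 CPM in R241E against 2996 to 3061 CPM in WT, and those on the precursor list at 372.1 and 864.5 against 979.8 to 1469 CPM. The part of these markers in the fibroblast results was not tested.

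**Figure D4:**
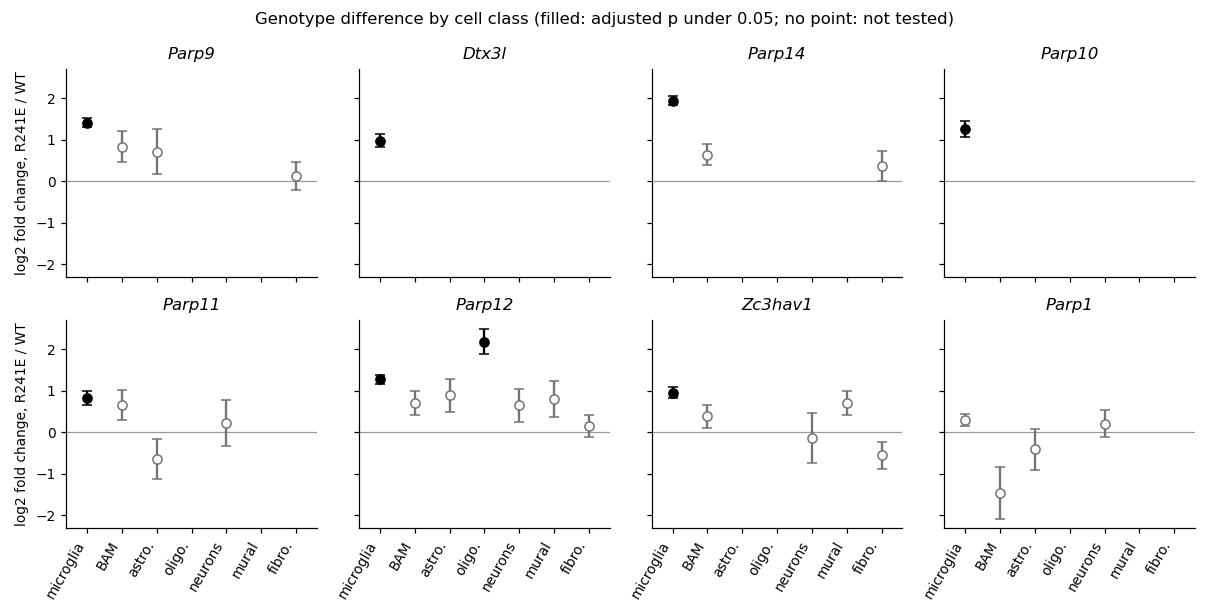
Log2 fold change of R241E over WT with its SE in each cell class where the gene was tested (BAM: border-associated macrophages). Filled points passed an adjusted p under 0.05. All 7 interferon-linked genes are filled in microglia, and elsewhere only Parp12 in oligodendrocytes is, at 2.19.

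A call in one class and none in another does not show a difference, so the genotype effect in microglia was compared with that in each other class within the same mice. Of all genes tested, the effect was called larger in microglia for 0.504% against border-associated macrophages, 0.648% against astrocytes, 0.555% against oligodendrocytes, 0.101% against neurons, 0.234% against mural cells and 0.648% against fibroblasts. These background counts themselves moved on leaving out single libraries, in oligodendrocytes from 70 genes to 0 without R241E mouse 1 and 1 without R241E mouse 2, in astrocytes from 84 to 5 without R241E mouse 1, and in neurons from 14 to between 0 and 75. For the interferon-linked genes 3 differences were called by edgeR. The effect on Parp14 was 1.26 (log2, SE 0.24, adjusted p = 4.09e-05) larger in microglia than in border-associated macrophages, and 1.5 (SE 0.40, adjusted p = 0.0241) larger than in fibroblasts. Zc3hav1 differed by 1.44 (SE 0.30, adjusted p = 4.51e-04) between microglia and fibroblasts.

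These calls depended on single libraries: without R241E mouse 1 none was left (adjusted p = 0.0529, 0.665 and 0.640 by edgeR), and without WT mouse 1 or without WT mouse 2 only 1 was. The difference of Parp14 against fibroblasts was called in none of these fits but that without R241E mouse 2. The effect on Parp12 was 0.93 smaller in microglia than in oligodendrocytes (difference -0.93, SE 0.37) and was not called (adjusted p = 0.429 by edgeR). For Parp1 the difference between microglia and border-associated macrophages was 1.76 (SE 0.54, adjusted p = 0.125 by edgeR).

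Genes around the same chemistry were read in microglia from lists. None of the 9 other PARP family genes was called, among them Parp2, Parp8 and the tankyrases Tnks and Tnks2, and their median log2 fold change was 0.02. Of the enzymes that remove ADP-ribose, such as Parg, 6 of 7 were tested and none called (median -0.08). The 9 partners of Parp1 and of DNA break repair, such as Xrcc1 and Hpf1, gave no call either (median -0.12), with Aplf the lowest at -1.03 (SE 0.33, adjusted p = 0.0676 by edgeR).

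Enzymes of NAD supply and use had 9 of 12 genes tested and 2 called. Nampt, the rate-limiting enzyme that salvages nicotinamide, stood at 79.5 and 76.1 CPM in the R241E mice, against 21.0, 29.8 and 26.3 CPM in WT (log2 fold change 1.56, SE 0.16, adjusted p = 6.09e-06 by edgeR). Nadk, which turns NAD into NADP, stood at 118.7 and 116.9 CPM against 69.1, 74.0 and 70.6 CPM (0.71, SE 0.11, adjusted p = 6.02e-04 by edgeR). Both genes kept the R241E mice above all WT mice. The NAD-consuming enzymes Cd38 and Bst1 had too few counts to be tested.

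Of the other Deltex genes, 3 of 4 were tested, and Dtx4 fell by 0.36 on the log2 scale (SE 0.10, adjusted p = 0.0408 by edgeR), from 155.7, 149.2 and 151.4 CPM in WT to 113.7 and 127.3 CPM in R241E. Dtx2 (-0.15, SE 0.258) and Dtx3 (0.104, SE 0.185) were tested and not called. Over all genes tested in microglia, 410 of 12730 were called lower. Among 7 cofactors of ZAP and antiviral RNA decay, Trim25, the ubiquitin ligase that ZAP depends on, was called, at 49.0 and 45 CPM against 20.6, 16.1 and 15.9 CPM (1.44, SE 0.18, adjusted p = 5.14e-05 by edgeR), and Khnyn, the endonuclease recruited by ZAP, was not (-0.13, SE 0.17).

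Of the genes of type I interferon reception read here, Stat2 (2.35, SE 0.13, adjusted p = 4.99e-09) and Irf9 (1.11, SE 0.12, adjusted p = 1.35e-05) were called higher by edgeR, and the receptor chains Ifnar1 (0.35, SE 0.13) and Ifnar2 (0.16, SE 0.10) and the kinases Jak1 and Tyk2 were not. Stat2 stood at 232.4 and 182.0 CPM in the R241E mice, against 42.9, 40.6 and 38.9 CPM in WT. Stat2 belongs to the study's interferon list, of which all 28 genes were called higher (median 4.18). The 16 genes that flank the 8 on their chromosomes gave 12 tested and 0 called (median -0.05). Hspbap1 and Kpna1, on either side of the run of Parp14, Dtx3l and Parp9, were at 0.00 (SE 0.14) and -0.09 (SE 0.13), and Tbxas1, 1.8 kb from Parp12, was at -0.17 (SE 0.10).

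**Figure D5:**
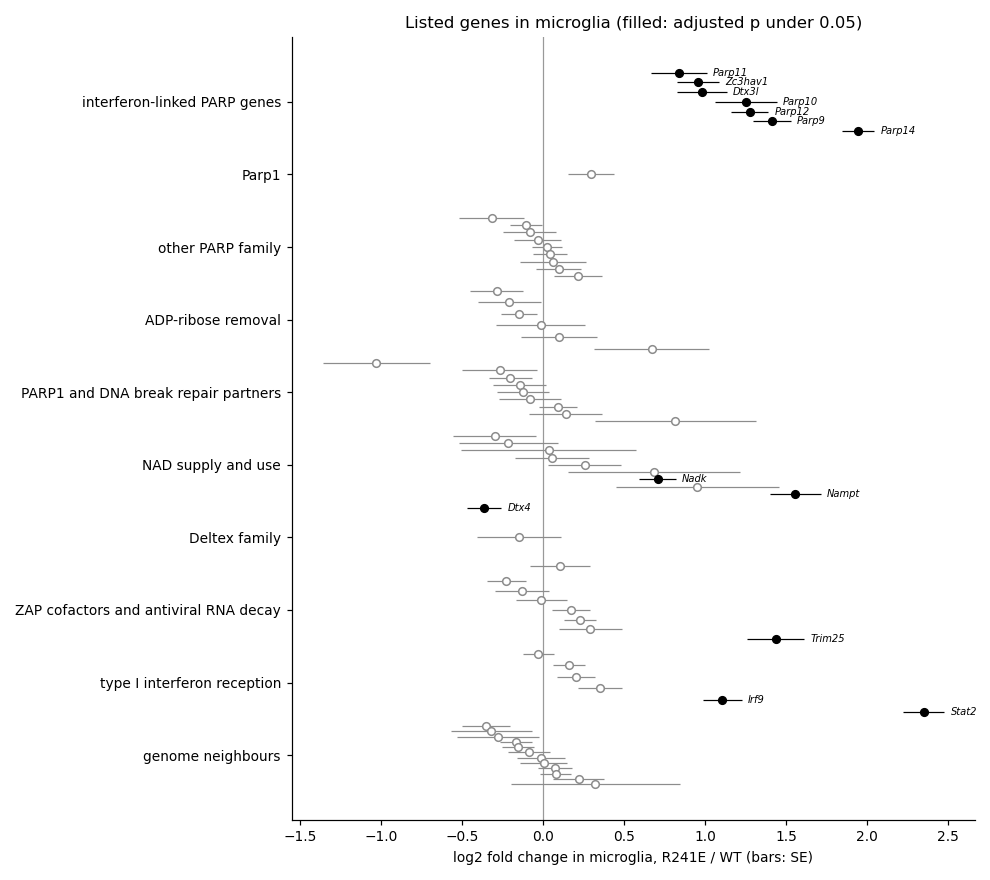
Log2 fold change of R241E over WT in microglia with its SE for the tested genes shown of each list. Filled points passed an adjusted p under 0.05. The 7 interferon-linked genes lie between 0.83 and 1.94, the other PARP family genes between -0.32 and 0.22, and Stat2 furthest right at 2.35.

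Patterns over all classes were compared through the 35 sums of 7 classes and 5 libraries, as Pearson's r of log2(CPM + 1), which share mice, depth and cell identity and are given without a test. Within the set, Parp9 and Parp14 (0.88) and Parp10 and Parp14 (0.85) were most alike, and the overlapping pair Parp9 and Dtx3l reached 0.74. Parp1 had r of 0.12 to 0.37 with the others. Over all genes with a mean of at least 5 CPM, Parp9 was most like Ifnar2 (0.88), Kitl (0.88) and Ifi35 (0.87), Dtx3l like Irgm2 (0.85), Raet1e (0.84) and Uba7 (0.83), and Parp12 like Irf9 (0.87), Sp100 (0.87) and Irgm1 (0.86). Parp14 was most like 9930111J21Rik2 (0.90), Olfr56 (0.89) and Gm12185 (0.89), and Parp10 like Pde6h (0.89), Sp100 (0.88) and Nono (0.87). The closest genes to Parp11 were Ap1b1 (0.86), Dnajc13 (0.86) and Clcn5 (0.85), and those to Zc3hav1 were Tec (0.90), Rcsd1 (0.89) and Susd6 (0.89).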

How the data were processed

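The 8 genes and the gene lists were chosen with earlier results of these data known. The deposited values were raw UMI counts for each gene in each nucleus, made by the authors with Cell Ranger 7.0.0 on mm10. Whether intronic reads and strand were used is not given in the sources used here. Sums and tests were computed here from those counts. Limits on nuclei came from the study's methods: at least 200 genes, and less than 4500 genes, 10000 UMIs and 5% mitochondrial UMIs. They were clustered together (scanpy 1.11.5: 3000 variable genes, 30 principal components, 20 neighbours, Leiden resolution 1) into 25 clusters. Clusters were named by the marker list of highest mean log2 fold, with 3 markers in at least 10% of nuclei and a mean of at least 2, so class names mean nuclei that resemble the class. Doublets were limited by the upper limits: Scrublet called 47 nuclei (0.494%), too few for a working caller.

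Libraries are separate mice. Counts were added up over the nuclei of a class in each library, for classes with at least 20 nuclei in each library, and tested with edgeR 4.0.16 in R 4.3.3 (quasi-likelihood test, TMM, filterByExpr, genotype only, Benjamini-Hochberg adjustment over all genes tested, called at 0.05). CPM are not TMM-scaled. Differences between classes were tested as the class-by-genotype term with the mouse as a block. DESeq2 1.42.0, limma 3.58.1 (voom) and the alternatives given at the end were also run, and the scripts were tested on simulated counts. Interferon-list bins were made after thinning each nucleus to 1000 UMIs, and as an alternative from full-depth counts. Thinning was a random draw, made separately for the summed counts and for the microglial shares and bins. Shares were compared by exact permutation over libraries. Deposited totals were 4183709 to 10130667 UMIs per library. The genes named were the 8, every called gene of the lists up to 4 per list, and the 3 genes most like each interferon-linked one. Exceptions named after their values were seen were some uncalled genes of the lists, chosen for their role or as the lowest value, and Stat2 and Irf9 outside microglia. A gene of the interferon reception list and a motif are not reported here.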

Additional observations from a re-analysis of the deposited data

Results flagged for a closer look

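A total of 3 results were set apart because the genotype effect differed between 2 cell classes of the same mice by a direct test. The effect on Parp14 was larger in microglia than in border-associated macrophages by 1.26 on the log2 scale (SE 0.24, adjusted p = 4.09e-05 by edgeR). In border-associated macrophages the gene was already at 154.1 to 385.4 CPM in WT mice, against 79.7 to 88.3 CPM in WT microglia.

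The effect on Parp14 was also larger in microglia than in fibroblasts, by 1.5 (SE 0.40, adjusted p = 0.0241 by edgeR), and that on Zc3hav1 by 1.44 (SE 0.30, adjusted p = 4.51e-04 by edgeR). Fibroblasts of WT mouse 1 numbered 30 nuclei and gave 7 UMIs of Parp14 and 18 of Zc3hav1. None of the 3 differences was called without R241E mouse 1. In fibroblasts, markers on the astrocyte list stood at 1583 and 2074 CPM in R241E, below the 2996 to 3061 CPM of WT. The part that nucleus number or class composition had in these differences was not tested.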

How the results depend on the processing

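The calls in microglia were 7 under every alternative run except without R241E replicate 1 and with nuclei thinned before summing, where 6 were called, so leaving out single libraries gave 6 to 7. Parp11 was lost without R241E replicate 1 (0.66) and Parp10 after thinning (0.51, adjusted p = 0.471 by edgeR). The thinning was a single random draw. The single call in other classes became 0 by limma-voom, 0 after thinning and 0 to 1 on leaving out single libraries. The 3 differences between classes became 0 to 3 on leaving out single libraries (0 without R241E replicate 1, 1 without WT replicate 1, 1 without WT replicate 2), and without a filter on low counts Parp14 against fibroblasts was not called (1.43, adjusted p = 0.0859 by edgeR).

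With the mouse number as a replicate block, 7 genes were called in microglia and 2 calls stood in other classes, since Parp12 in astrocytes was then called too (1.83, adjusted p = 0.00676 by edgeR). The numbers are not stated to pair the mice, and deviations of mice with the same number correlated at 0.105 and -0.02. WT mouse 3 had no R241E mouse of the same number, so under this block it did not enter the genotype contrast. Parp12 in its astrocytes stood at 68.3 CPM. WT mice 1 and 2 were at 18.3 and 23.1 CPM, and the R241E mice at 75.7 and 68.6 CPM.

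Signs that turned belonged to uncalled changes. In neurons Zc3hav1 was 0.33 by limma-voom, 0.42 with the replicate block and 0.42 with upper limits on nuclei lifted, and Parp11 was -0.088 with the replicate block. On leaving out single libraries the ranges were -0.56 to 0.48 for Zc3hav1 in neurons, -0.082 to 0.70 for Parp11 in neurons, -0.17 to 0.53 for Parp1 in neurons, -0.73 to 0.11 for Parp1 in astrocytes, -0.044 to 0.35 for Parp9 in fibroblasts and 0 to 0.31 for Parp12 in fibroblasts. Among single genes, Parp1 included, 118 of the alternative values in microglia kept direction and call and 2 lost the call, against 278 kept, 4 lost, 1 gained and 11 turned in other classes, and 9 kept and 9 lost among the differences.

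Counts of all genes called higher moved more: 766 in microglia became 412 (without R241E replicate 1) to 1251 (replicate block), 32 in border-associated macrophages 4 to 59, 23 in astrocytes 0 to 144, 13 in oligodendrocytes 1 to 42, 1 in neurons 0 to 254, 0 in mural cells 0 to 3 and 0 in fibroblasts 0 to 67, while genes called lower in microglia went from 410 to between 124 and 861. On leaving out single libraries or the filter on low counts, genes whose effect was called larger in microglia went from 55 to between 26 and 53 against border-associated macrophages, 84 to between 5 and 94 against astrocytes, 70 to between 0 and 122 against oligodendrocytes, 14 to between 0 and 95 against neurons, 28 to between 9 and 23 against mural cells, and 83 to between 35 and 60 against fibroblasts. The causes were not tested.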
